A study of Mus musculus with 24 samples.

Results

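The 45 genes described here act at mitosis and at the G2/M boundary, and they were followed in 24 mouse mammary tumors. They were chosen by name: every array probe for a sample target whose gene name was one of the 45 symbols was taken, with Cdk1 also accepted under its older symbol Cdc2a. All 45 genes were on the array, through 64 probes out of 39429 probes in all. A level could be tested for 44 of the 45, among 20971 genes tested.

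A cell that has copied its DNA enters mitosis when cyclin B and cyclin A switch on the kinase Cdk1. Polo and Aurora kinases and kinesin motors then build the spindle, kinetochores tie the chromosomes to it, and the spindle checkpoint holds back the anaphase-promoting complex until all of them are attached. Transcripts of these genes are made mainly in late S phase and G2, so that in tissue their levels are widely read as a gauge of how many cells are cycling, and proliferation signatures of breast tumors are largely made of them. Much of this timing runs through promoters with CCAAT boxes, bound by NF-Y, and with a cell cycle genes homology region (CHR), whose core letters are TTTGAA and which is read by the MuvB complex with B-Myb and FoxM1.

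All tumors arose in female BALB/c mice given the carcinogen DMBA by gavage in 4 weekly doses from 5 weeks of age, and no untreated gland was on these arrays. The diets, high (HFD) or low (LFD) in saturated animal fat, began at 3 weeks of age, and the mice labelled HFD-LFD and LFD-HFD changed diet at 9 weeks. Early tumors were those found less than 23 weeks after the carcinogen. There were 3 HFD Early, 3 HFD-LFD Early, 5 LFD Late, 6 HFD Late, 4 LFD-HFD Late and 3 HFD-LFD Late tumors, so that no early tumor came from a mouse on LFD or LFD-HFD. Each tumor was hybridised with 2 dyes against 1 common reference, a commercial RNA pool of 11 mouse cell lines. The tumors are whole tissue and of mixed histology, and in such tissue fewer cells of a type and less RNA per cell cannot be told apart. Histology was not balanced: the study reports adenosquamous carcinoma more often among its tumors of short latency. The part of histology in the values here was not tested. Nothing in the labels says whether 2 tumors came from 1 mouse, and the p-values treat each tumor as independent. Replicate numbers here follow the order of deposit and are only names.

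Levels are log2 ratios of tumor over reference, and a difference of 1 is a 2-fold change. The labels put the tumor in cyanine 5, whereas the study's methods put the reference in that dye. Between arrays the quantile-normalized signal varied by a median SD of 0.61 in cyanine 5 and 0.25 in cyanine 3 (log2), and a reference common to all arrays should vary least. The ratios are therefore given with the tumor in cyanine 5, which is the opposite of the direction in the methods text. Between 66.1% and 89.2% of the probes were well above background in a tumor. On 7 arrays of 2 slides, all late tumors, bands of rows holding 20.6% to 30.5% of the spots had a collapsed cyanine 5 signal and were set missing. As a result 23 members had values in all 24 tumors, and 3, 7 and 11 members had values in 22, 21 and 20 of them.

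The promoter windows come first, since they show what many of the members share beyond function. RefSeq windows of 300 bases (build GRCm38.p6, 250 bases before the transcript start and 50 after it) were available for 38 members, as 41 windows. A CCAAT box, searched as CCAAT on either strand, lay in 73.2% of the members' windows and in 37.4% of all 32851 windows. The CHR core, searched as TTTGAA on either strand, lay in 70.7% of the members' windows and in 17.9% of all. Both were found in 61.0% of the members' windows and in 6.95% of all. The 4 windows printed here belong to the members with the smallest p between early and late tumors among those that hold both motifs. Skp2 is at chr15:9155376-9155675 (minus strand), Cenpf at chr1:189688037-189688336 (minus strand), Top2a at chr11:99024140-99024439 (minus strand) and Kif11 at chr19:37376132-37376431 (plus strand). They read 5′ to 3′ along the gene, with every match to either motif in capitals, also where it is written as its reverse complement ATTGG or TTCAAA.
Skp2: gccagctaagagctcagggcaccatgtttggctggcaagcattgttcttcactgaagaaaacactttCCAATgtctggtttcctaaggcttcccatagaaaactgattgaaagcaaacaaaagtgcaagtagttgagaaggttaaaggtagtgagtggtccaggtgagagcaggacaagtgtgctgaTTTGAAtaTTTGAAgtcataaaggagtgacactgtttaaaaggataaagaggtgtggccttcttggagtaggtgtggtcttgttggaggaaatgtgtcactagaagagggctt
Cenpf: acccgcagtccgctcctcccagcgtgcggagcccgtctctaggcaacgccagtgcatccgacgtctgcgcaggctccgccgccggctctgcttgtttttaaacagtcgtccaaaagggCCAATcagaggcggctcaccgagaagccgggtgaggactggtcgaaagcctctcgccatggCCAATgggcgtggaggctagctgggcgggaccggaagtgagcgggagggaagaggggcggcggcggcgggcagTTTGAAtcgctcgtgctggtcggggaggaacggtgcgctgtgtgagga
Top2a: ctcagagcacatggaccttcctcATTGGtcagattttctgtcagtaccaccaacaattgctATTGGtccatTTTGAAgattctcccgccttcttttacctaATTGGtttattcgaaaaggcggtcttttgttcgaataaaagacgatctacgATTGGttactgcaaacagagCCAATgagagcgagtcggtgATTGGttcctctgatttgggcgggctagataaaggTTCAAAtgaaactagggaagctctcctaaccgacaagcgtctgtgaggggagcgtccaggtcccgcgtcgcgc
Kif11: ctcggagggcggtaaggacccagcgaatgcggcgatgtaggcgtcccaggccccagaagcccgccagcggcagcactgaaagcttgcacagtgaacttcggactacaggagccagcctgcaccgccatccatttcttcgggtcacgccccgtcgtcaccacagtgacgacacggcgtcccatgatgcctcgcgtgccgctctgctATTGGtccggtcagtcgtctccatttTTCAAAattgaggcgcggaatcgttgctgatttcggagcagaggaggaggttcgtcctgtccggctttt

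The Top2a window held 6 CCAAT matches, and its CHR match nearest to the start lay at position -23, counted from 0 at the first transcribed base to the first letter of the match. In Kif11 the CCAAT match lay at -45 and the CHR match at -19. In Cenpf the nearest CCAAT match was at -71 and the CHR match at 2. Skp2 was arranged differently, with its CCAAT match far upstream at -183 and the nearer of its 2 CHR matches at -55. Over all the members' windows the median match position was -67 for CCAAT and -10 for the CHR core, against -92 and -124 over all windows. Both motifs were present in 15 of the 26 members with a window that were higher in early tumors by the test given next, and in 8 of the 12 that did not pass it. A match is a run of letters, and binding was not measured.

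**Figure D1:**
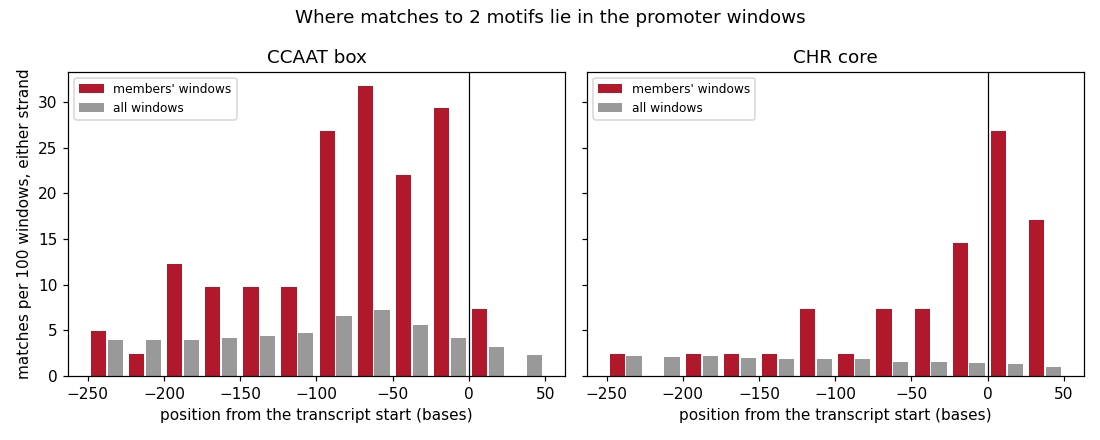
Matches per 100 promoter windows (y axis) by position from the transcript start in bins of 25 bases (x axis), for the CCAAT box and the CHR core, with members' windows in red and all windows in grey. CHR matches of the members gather at the start, with 26.8 matches per 100 windows in the first 25 transcribed bases against 1.31 over all windows.

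The main comparison of the study was of early with late tumors. Early tumors had the higher mean for all 44 members tested, and 29 of the 44 passed the test (limma, adjusted p under 0.05 over all genes tested). All 29 were higher in early tumors. The share called was 18.2% over all genes and 6.99% for genes called higher, while 42.6% of all genes had the higher mean in early tumors. Before adjustment, 41 of 44 members had p under 0.05, against 33.8% of all genes. The members' median difference was 0.83 (log2), and the median over all genes was -0.06. Single differences ran from 0.35 for Espl1, the separase that cuts cohesin at anaphase, to 1.37 for Kif15, a spindle kinesin. For 43 of the 44, all 6 early tumors lay above the median of the late tumors, which held for 12.9% of all genes, and the exception was Espl1 with 4 of 6 early tumors. The late tumors compared were not the same for every member: 11 members lacked HFD Late 5 and 6 among others, and 10 of these were called, against 19 of the 33 with all 6 HFD Late values. Over all genes those shares were 21.1% and 17.1%. The LFD and LFD-HFD diets gave late tumors only. Refitted in the HFD and HFD-LFD tumors alone, with diet as a term, the test called 21 members, all among the 29. In that fit 18.2% of all genes were called.

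**Figure D2:**
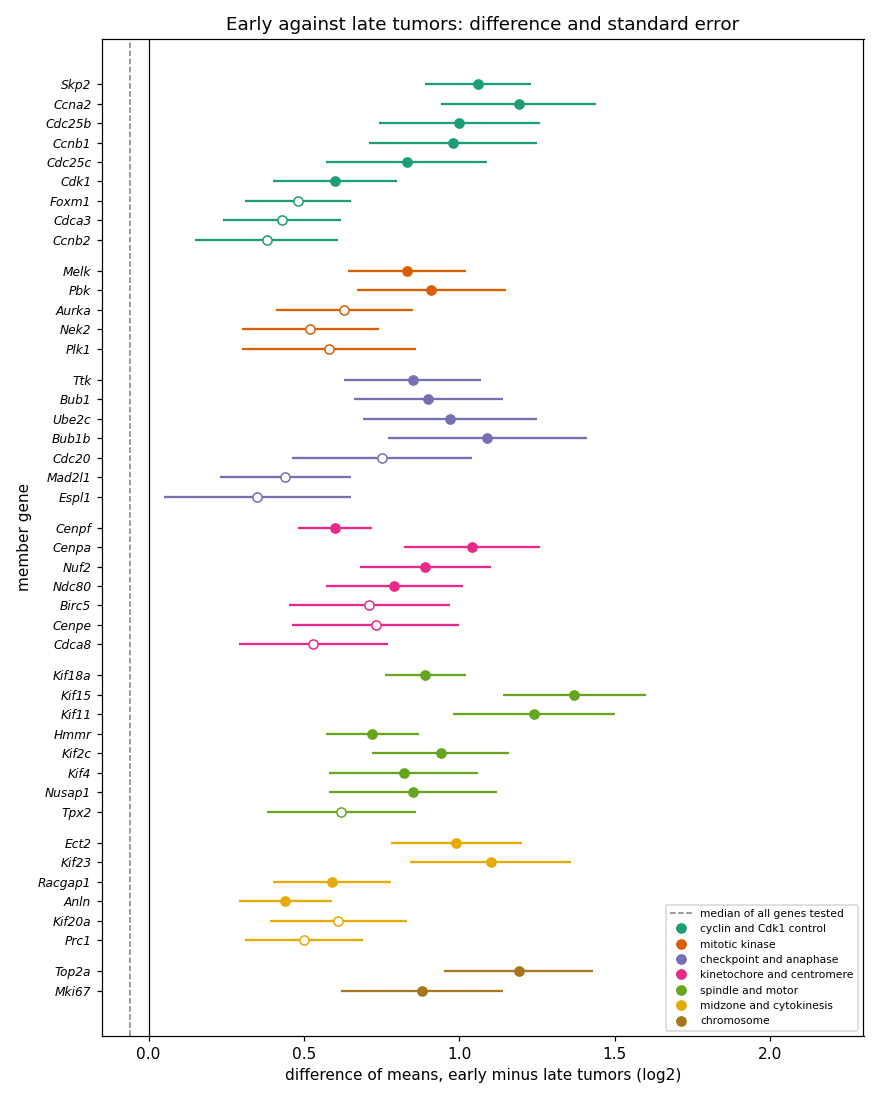
Difference of means between the 6 early and 18 late tumors (log2, x axis) for 44 members (y axis) grouped by role, with bars of 1 standard error, filled circles for adjusted p under 0.05 and open circles above it. All points lie to the right of 0, from 0.35 to 1.37, and of the dashed line, the median of all genes at -0.06.

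Cyclins and the control of Cdk1 came first in the order of mitosis, and 6 of 9 such members were called higher in early tumors. Skp2, the ubiquitin ligase subunit that removes the Cdk inhibitor p27, ran from 0.59 through a median of 1.21 to 1.47 in early tumors and from -0.69 through 0.11 to 0.75 in the 14 late tumors measured. Only 1 late tumor, of the HFD group, exceeded the lowest early one. The difference was 1.06 ± 0.17 (SE), a fold of 2.09, with adjusted p = 0.000706 by limma, and the probe lies at chr15:9042088-9042147 (mm9, minus strand). Ccna2, cyclin A2, was lowest at -0.33, 0.55 at the median and 1.27 at most in early tumors, against -1.41, -0.68 and 0.37 in 14 late ones. Its groups overlapped, because the 3 HFD Early tumors (1.27, 0.85 and 1.03) stood above every other tumor with a value while the 3 HFD-LFD Early tumors (-0.12, -0.33 and 0.26) lay among the late ones. Ccna2 had no usable value in HFD Late 5 and 6, the latter a high tumor for other members. The difference was 1.19 ± 0.25 with adjusted p = 0.00428 (probe chr3:36463978-36464037, mm9, minus strand).

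Ccnb1, cyclin B1, whose binding to Cdk1 starts mitosis, ran from 0.10 to 1.31 in early tumors with a median of 0.42, and from -1.66 to 1.06 with a median of -0.64 in the 18 late tumors. The groups overlapped through 2 late tumors, HFD Late 6 at 1.06 and LFD Late 4 at 0.45. The difference was 0.98 ± 0.27 (adjusted p = 0.0148), and the gene's 3 probes gave 0.94 to 1.01. Cdk1 itself changed less, by 0.60 ± 0.20 (adjusted p = 0.0404), from a median of -0.14 in late tumors to 0.48 in early ones, and 5 late tumors exceeded the lowest early one. Its other passing probe had 0.27 ± 0.10. Cdk1 lost its call under 19 of 43 other settings. The Cdk1-activating phosphatases Cdc25b and Cdc25c were higher by 1.0 ± 0.26 (adjusted p = 0.0119) and 0.83 ± 0.26 (adjusted p = 0.0298). Foxm1, the transcription factor that drives many of the other members, had 0.48 ± 0.17 (adjusted p = 0.0524), just outside the threshold, and it passed under 12 of 43 other settings. Its 6 early tumors were close together, from -0.21 to 0.07, and the 18 late ones were spread from -1.33 to -0.03. Ccnb2 and Cdca3, cyclin B2 and a trigger of Wee1 degradation, had 0.38 (adjusted p = 0.257) and 0.43 (adjusted p = 0.101).

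Of the mitotic kinases 2 of 5 tested were called higher. Melk, a kinase often counted among proliferation markers, ran from 0.25 through 0.70 to 1.29 in early tumors and from -0.79 through -0.05 to 0.62 in 14 late ones. Only 2 late tumors exceeded the lowest early one, and the difference was 0.83 ± 0.19 (adjusted p = 0.00662). Pbk, a kinase active in mitosis, had early values of 0.39 to 2.21 and late values of -0.40 to 1.39 (medians 1.29 and 0.19). Its early range was stretched by HFD Early 1 at 2.21 and HFD-LFD Early 1 at 0.39, 8 late tumors exceeded the latter, and the difference was 0.91 ± 0.24 (adjusted p = 0.0137). Plk1, the polo kinase that drives mitotic entry, spindle assembly and exit, had 0.58 ± 0.28 (adjusted p = 0.153). Its early tumors lay between 0.00 and 0.77, inside the late range of -1.43 to 1.29, whose ends were both HFD Late tumors. Aurka, the centrosomal Aurora kinase, had 0.63 (adjusted p = 0.0504) and Nek2, a kinase of centrosome separation, 0.52 (adjusted p = 0.0946). Aurkb, the Aurora kinase of the chromosomal passenger complex, was the member not tested. Its only probe was not well above background in either channel of any array, with signals up to 17.2 in tumors and 9.52 in the reference, so the array gave no usable level for it in the cell line pool either.

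Of the spindle checkpoint and anaphase members 4 of 7 were called higher. Ttk, the Mps1 kinase that starts the checkpoint, ran from 0.55 through 1.24 to 2.12 in early tumors and from -0.07 through 0.32 to 1.21 in 15 late ones. The groups overlapped through 4 late tumors, and the difference was 0.85 ± 0.22 (adjusted p = 0.0119). Bub1, a checkpoint kinase at kinetochores, had early values of 0.60, 0.91 and 1.38 (lowest, median, highest) and late values of -0.85, -0.06 and 1.28. HFD Late 6, LFD Late 4 and HFD Late 5 reached the early range, and the difference was 0.90 ± 0.24 (adjusted p = 0.0141). Bub1b, the checkpoint protein BubR1, and Ube2c, the ubiquitin-conjugating enzyme of the anaphase-promoting complex, were higher by 1.09 ± 0.32 (adjusted p = 0.0209) and 0.97 ± 0.28 (adjusted p = 0.0189). The differences of Cdc20, the activator of that complex, Mad2l1, which holds Cdc20 back, and Espl1 were 0.75, 0.44 and 0.35, with adjusted p of 0.0738, 0.137 and 0.421. The probes of Mad2l1 differed in size: the value given is that of its brightest probe, and its other passing probes had 0.99 ± 0.23 and 0.82 ± 0.15.

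At the kinetochore and centromere 4 of 7 members were called higher. Cenpf, a kinetochore protein that accumulates in G2, changed from late values of -0.21, 0.07 and 0.54 (lowest, median, highest) to early values of 0.16, 0.69 and 1.32. Its difference of 0.60 ± 0.12 (adjusted p = 0.00278) went with 4 late tumors above the lowest early one, and 2 of its late values, 1 of LFD and 1 of HFD, were imputed. It was the member least often well above background in the tumor channel, on 75.0% of its usable spots, and its difference was 1.56 by the scanner software's own log ratio. Cenpa, the histone H3 variant that marks the centromere, rose by 1.04 ± 0.22 (adjusted p = 0.0034) from a late median of -0.97 to an early median of -0.01, and 5 late tumors exceeded its lowest early one. Nuf2 and Ndc80, subunits of the complex that grips microtubules, were higher by 0.89 ± 0.21 (adjusted p = 0.00589) and 0.79 ± 0.22 (adjusted p = 0.0153). Nuf2 was the only member whose probes disagreed in sign: a dimmer probe of the gene had -0.21 ± 0.09. Among 12 members with more than 1 passing probe, the other 11 had probes of the same sign. Birc5 (survivin), Cdca8 (borealin) and the motor Cenpe had 0.71, 0.53 and 0.73, with adjusted p of 0.0590, 0.134 and 0.0629.

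Of the spindle and motor members 7 of 8 were called higher, and Kif15, Kif18a, Kif2c and Hmmr among them had no usable value in HFD Late 5 and 6. Kif18a, the kinesin that damps chromosome oscillations at the metaphase plate, had the smallest p of all members. Its early tumors ran from 0.80 through 0.93 to 1.43 and its 14 late tumors from -0.37 through 0.23 to 0.52, so that the groups did not overlap. The difference was 0.89 ± 0.13, a fold of 1.85, with adjusted p = 0.000369 (probe chr2:109181416-109181475, mm9, plus strand). Kif15, a kinesin that helps keep the spindle bipolar, had the largest difference, 1.37 ± 0.23 or 2.59-fold (adjusted p = 0.000885). It was highest in the 3 HFD Early tumors, at 1.55, 1.35 and 1.21, lower in the 3 HFD-LFD Early tumors, at -0.07, 0.26 and 0.84, and between -0.98 and 0.65 in late ones. A single late tumor, LFD Late 3, reached into the early range. Kif11, the Eg5 motor that separates the spindle poles, rose by 1.24 ± 0.26 (adjusted p = 0.00307), Kif2c by 0.94 ± 0.22, Nusap1 by 0.85 ± 0.27, Kif4 by 0.82 ± 0.24 and Hmmr by 0.72 ± 0.15. Tpx2, the activator of Aurora A, had 0.62 ± 0.24 (adjusted p = 0.0714).

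At the midzone and in cytokinesis 4 of 6 members were called higher. Kif23, the centralspindlin motor, ran from 0.04 through 0.63 to 1.22 in early tumors and from -1.55 through -0.61 to 0.77 in 16 late ones, a difference of 1.1 ± 0.26 (adjusted p = 0.0067). Ect2, which acts in cytokinesis, ran from 0.43 through 0.81 to 1.28 against -1.12 through -0.13 to 0.75 in 14 late tumors. Late tumors above the lowest early one numbered 3 for Kif23 and 1 for Ect2, and Ect2 differed by 0.99 ± 0.21 (adjusted p = 0.00443). Racgap1, the partner of Kif23, and the scaffold Anln were higher by 0.59 ± 0.19 (adjusted p = 0.0384) and 0.44 ± 0.15 (adjusted p = 0.0411). Kif20a and Prc1, a motor and a microtubule bundler of the midzone, had 0.61 (adjusted p = 0.0613) and 0.50 (adjusted p = 0.0685). Both chromosome members were called higher. Top2a, the topoisomerase that untangles sister DNA, had early values of -0.33, 0.34 and 1.21 and late values of -1.52, -0.73 and 0.29 in 14 tumors, a difference of 1.19 ± 0.24 (adjusted p = 0.00299, 1 late tumor above the lowest early one, probe chr11:98855522-98855581, mm9, minus strand). Mki67, the Ki-67 protein that coats mitotic chromosomes, had -0.58, -0.09 and 0.78 against -1.66, -0.89 and 0.56, a difference of 0.88 ± 0.26 (adjusted p = 0.0232), with 5 late tumors above the lowest early one.

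**Figure D3:**
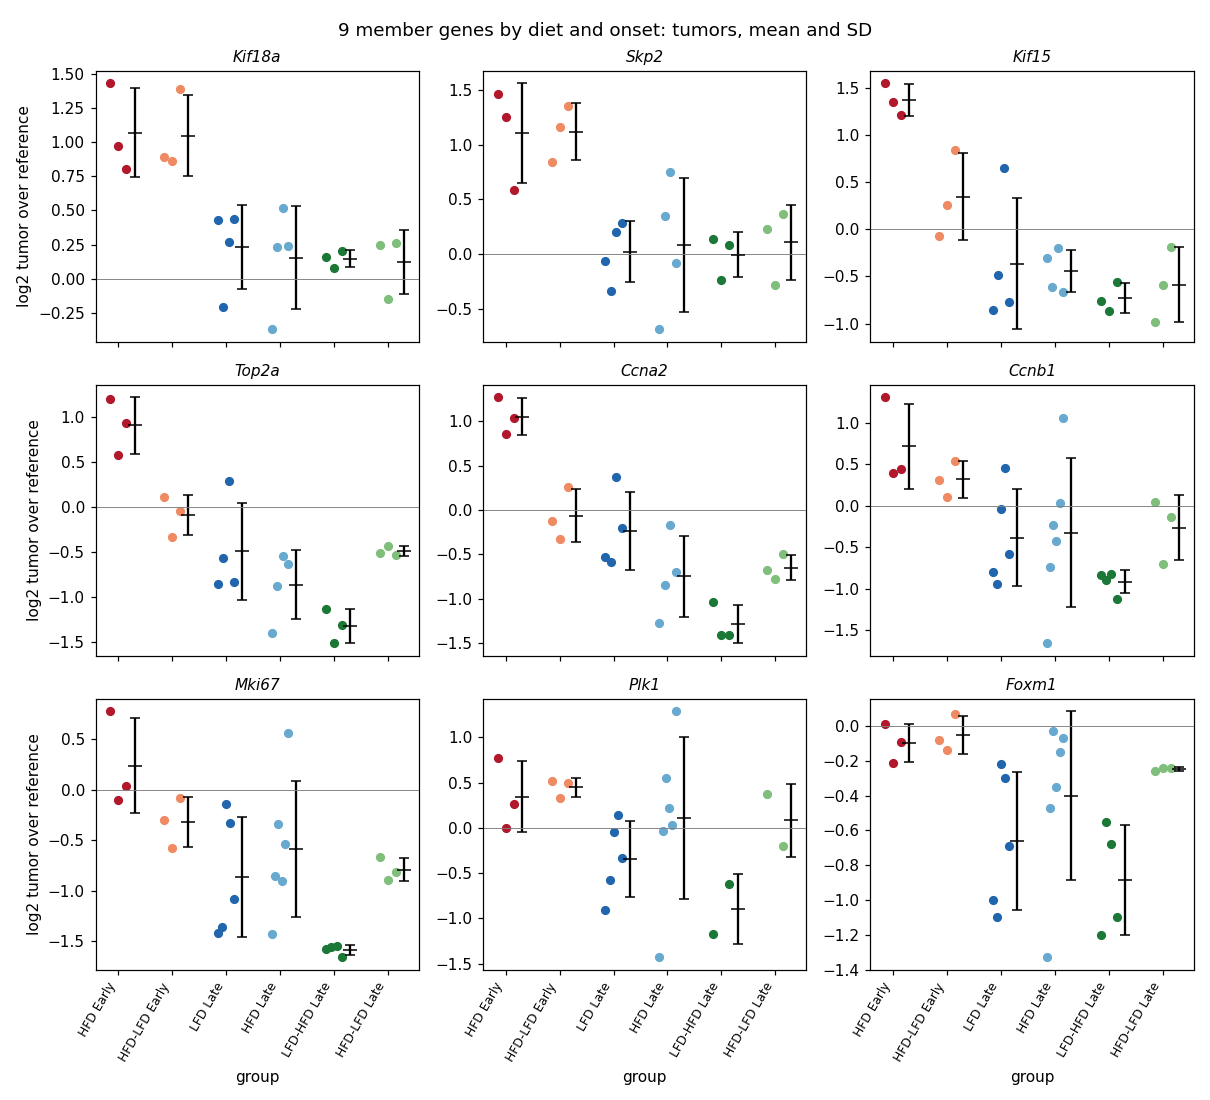
Log2 ratio of tumor over reference (y axis) of 9 members in each tumor by group (x axis), with the group mean and SD in black beside the points; the grey line is the reference level. Kif18a and Skp2 were alike in both early groups, while Top2a, Ccna2 and Kif15 were highest in the HFD Early tumors. Kif18a, Skp2, Top2a, Ccna2 and Kif15 had no usable value in HFD Late 5 and 6, while Ccnb1, Mki67, Plk1 and Foxm1 did.

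Slide and scan session moved with onset, and their part in the result was not tested. The HFD Early tumors filled a slide alone, the HFD-LFD Early tumors shared a slide with 1 LFD-HFD tumor, and no early tumor was in the third scan session. With the session as a term 33 members were called, against 26.8% of all genes, and within the first session, with 3 early and 8 late tumors, 23 were, against 7.33% of all genes. Within the second, with 3 early and 3 late tumors, 10 were called against 11.9% of all genes. With the slide as a fixed term, where only 1 slide holds both kinds of tumor, 0 members were called against 0.372% of all genes. That fit sets 3 HFD-LFD Early tumors against 1 LFD-HFD tumor, so onset and diet cannot be told apart in it. The difference was above 0 for all 44 members there and in each of the session fits. The members share the same tumors, so their signs are not independent of each other. The count also fell with each HFD Early tumor left out. Without HFD Early 1, 17 members were called, all among the 29, against 13.9% of all genes, and without HFD Early 2 or 3, 21 were, against 10% and 12.6% of all genes. The 7 arrays with dimmed rows were all of late tumors. When they were left out, so that every member was compared in the same 17 tumors, 37 members were called against 19.2% of all genes.

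The tumors themselves differed as widely as the groups. Each member was centred on its median over tumors, and the median over members gave 1 value a tumor. HFD Early 1 stood highest at 1.18 and held the highest value of 29 of the 44 members. The other HFD Early tumors had 0.58 and 0.60, and the HFD-LFD Early tumors 0.38, 0.20 and 0.55. The second highest of all was a late tumor, HFD Late 6, at 0.95 over the 33 members measured in it, and 10 members were highest there. The lowest was also an HFD Late tumor, number 1, at -0.92, with the lowest value of 23 members. HFD Late tumors thus spanned more than any other group, and their SD was the largest of the 4 late groups for 33 of 44 members. LFD Late tumors ran from -0.39 to 0.42 and HFD-LFD Late tumors from -0.25 to 0.00. All 4 LFD-HFD tumors were low, between -0.67 and -0.47.

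**Figure D4:**
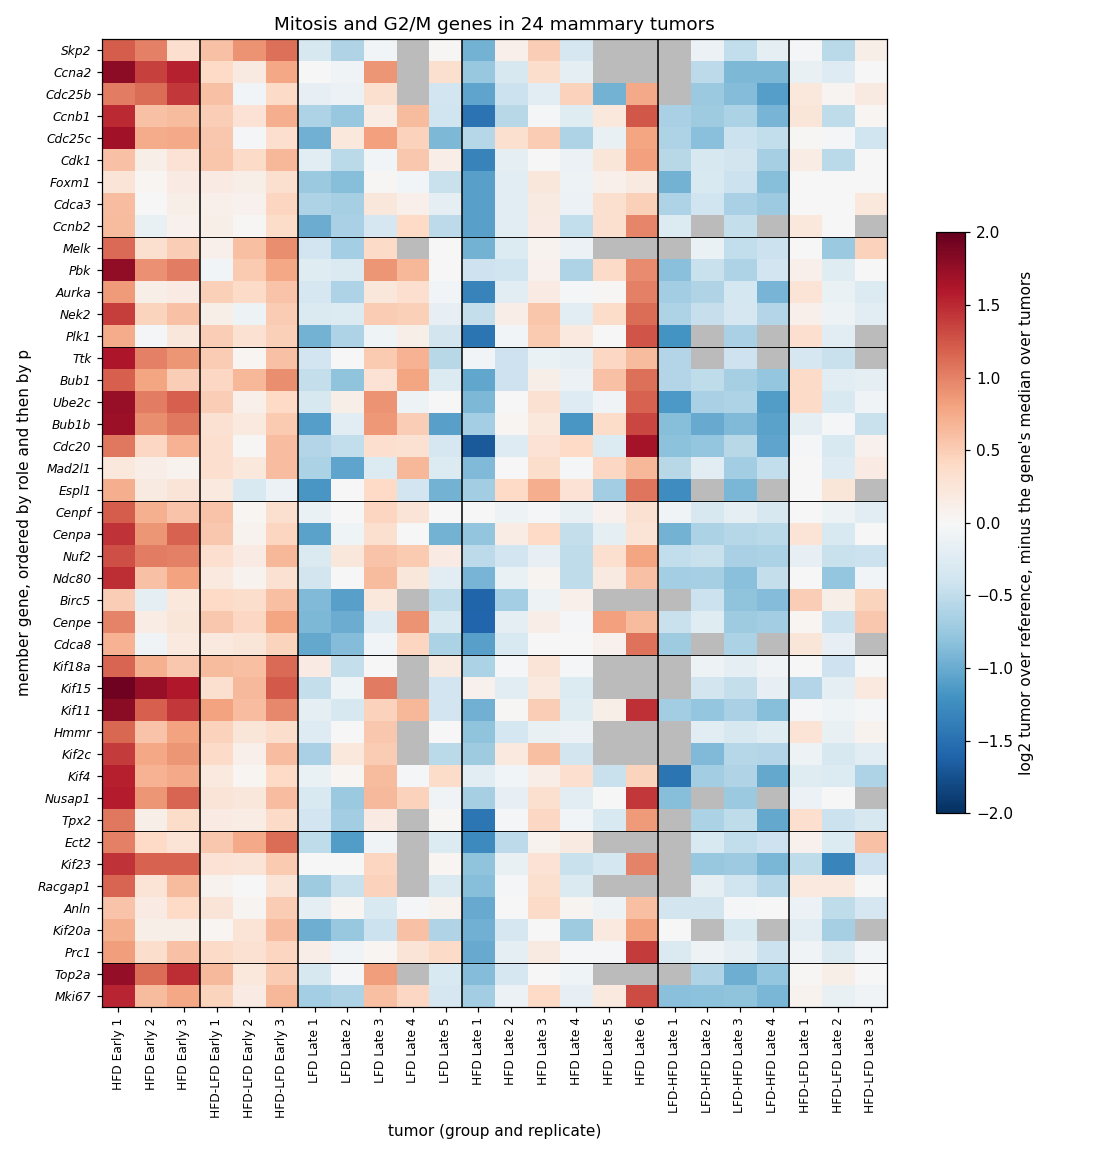
Level of each of 44 members (rows, by role and then by p) in each of 24 tumors (columns, by group), as log2 ratio minus the member's median over tumors; grey cells have no usable value. HFD Early 1 is highest for 29 members, HFD Late 1 lowest for 23, and the 4 LFD-HFD tumors are low throughout.

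With diet held constant, the change with onset was tested within the HFD tumors and within the HFD-LFD tumors. Within either diet no slide held both early and late tumors, so onset and slide cannot be told apart there. Within HFD 20 of 44 members were called and all were higher in the 3 early tumors, against 13.6% of all genes called and 6.02% called higher. All 20 were also among the 29 called with the diets together. The members' median difference was 0.93 and that of all genes -0.09. Ccna2 changed by 1.79 ± 0.25 (3.47-fold, adjusted p = 0.000945), Top2a by 1.77 ± 0.26 (3.42-fold, adjusted p = 0.00114) and Kif15 by 1.81 ± 0.31 (3.52-fold, adjusted p = 0.00246). At the other end, the brightest probe of Mad2l1, the lowest of its 3 between early and late tumors, had 0.06 (adjusted p = 0.922) and Plk1 0.24 ± 0.40 (adjusted p = 0.726), with HFD Late 6 above all 3 early tumors in both. In 16 members every HFD Early tumor exceeded every HFD Late tumor, which held for 8.56% of all genes. Missing values bear on this comparison, because 11 members lacked HFD Late 5 and 6, the latter a high tumor. Of these 11, 8 were called within HFD, and of the 33 members with all 6 late tumors 12 were called; over all genes the shares were 15.6% and 12.9%. With the 7 dimmed arrays left out for every member 25 were called against 16.8% of all genes. Without HFD Early 1, 9 were called against 6.84%, and with the slide as a random block 12 against 5.18%.

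Within HFD-LFD 0 of 44 members were called by limma, where 0.901% of all genes were, and 11 members passed at an unadjusted p under 0.05 against 15.9% of all genes. The median difference was 0.47 against -0.06 over all genes, with 42 members higher in the 3 early tumors and Espl1 (-0.19) and Racgap1 (-0.01) on the other side. The members nearest to the threshold were Kif18a, at 0.93 ± 0.24 (adjusted p = 0.0716), and Kif23, at 1.11 ± 0.33 (adjusted p = 0.105). Kif18a measured 0.89, 0.86 and 1.39 in HFD-LFD Early tumors and 0.25, -0.15 and 0.26 in HFD-LFD Late tumors. Skp2 measured 0.84, 1.16 and 1.36 against 0.23, -0.28 and 0.37. For these and for 25 members in all, every early tumor exceeded every late one, which held for 14.7% of all genes.

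The onset changes of the 2 diets were then compared with each other. No member passed that test, 0 of 44 by limma with 0% of all genes called, and 6 members passed at an unadjusted p under 0.05 against 8.21% of all genes. The change was larger within HFD for 36 of 44 members and for 46.8% of all genes. The late HFD tumors behind it differ, since 11 members, Top2a and Ccna2 among them, lack HFD Late 5 and 6. With the dimmed arrays left out for every member it was larger within HFD for 39 of 44, against 44.1% of all genes, and Top2a had the widest gap there too, at 1.39. The widest gap was in Top2a, whose change was larger within HFD by 1.37 ± 0.38 (adjusted p = 0.434), followed by Cdc25b at 1.26 (adjusted p = 0.522) and Ccna2 at 1.21 ± 0.37 (adjusted p = 0.48). Kif18a and Skp2 changed by nearly the same amount in both diets, with gaps of -0.02 ± 0.32 and 0.01 ± 0.43. Those standard errors leave wide intervals on either side of 0.

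**Figure D5:**
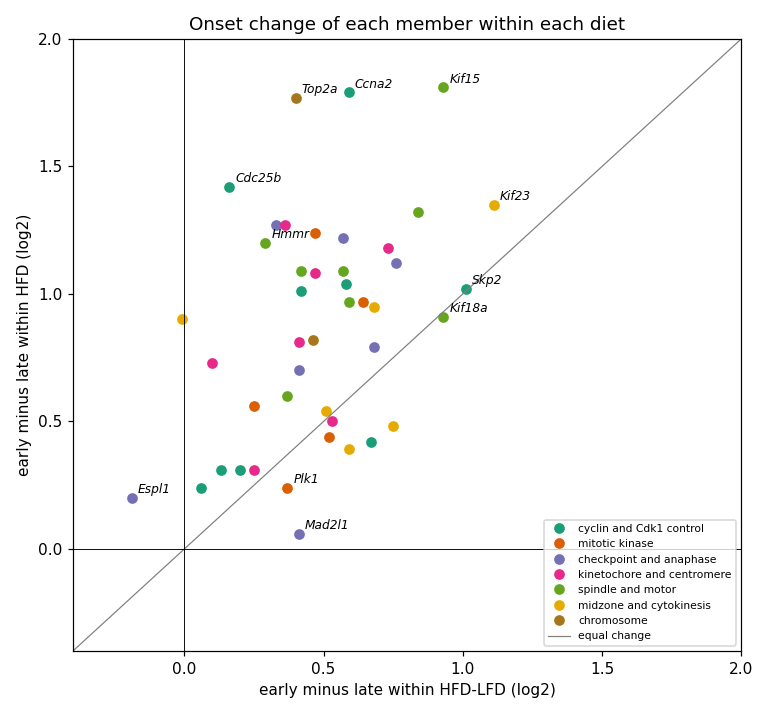
Early minus late difference (log2) of each of 44 members within HFD (y axis, 3 early tumors and 6 late ones, or 4 late ones for 11 members) against that within HFD-LFD (x axis, 3 and 3 tumors), coloured by role, with a grey line of equal change. There are 36 points above the line, Top2a farthest from it, and Kif18a and Skp2 lie on it.

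Diet was compared without regard to onset in the continuous groups. Among 9 HFD and 5 LFD tumors 0 of 44 members were called by limma (0% of all genes), and 0 members passed at an unadjusted p under 0.05 against 5.07% of all genes. All 44 means were nevertheless higher in HFD, with a median difference of 0.39 and the largest, 0.70, in Kif15, whereas 47.0% of all genes were higher in HFD, with a median of -0.02. The 9 HFD tumors include the 3 early ones and all LFD tumors were late, so that diet and onset cannot be told apart in that difference. Between the HFD Late and LFD Late tumors 27 of 44 means were higher in HFD.

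Among the 18 late tumors the 4 diets were compared by an F test, and 0 of 44 members were called by limma against 0.277% of all genes. At an unadjusted p under 0.05, 7 members passed, 15.9% of the 44 and close to the 15.3% of all genes. The counts of members that follow rest on the same 4 LFD-HFD tumors and are not independent of each other. LFD-HFD, the group that met the high-fat diet only in adulthood, had the lowest mean of the 6 groups for 38 members (16.5% of all genes), and each of its tumors with a value lay below the median of all tumors for 43 members (18.7% of all genes). Some members had fewer than 4 values in this group, Plk1 only 2 and Ccna2 only 3. The median of the members' group means was -0.72 in LFD-HFD tumors, against -0.23 in LFD Late, -0.17 in HFD Late and -0.22 in HFD-LFD Late tumors, 0.21 in HFD-LFD Early and 0.72 in HFD Early. Of the 4 LFD-HFD tumors 3 were on the slides with dimmed rows, and the 1 on another slide had -0.59, within the range of the others. Kif4, a chromokinesin encoded on the X chromosome, was nearest to the threshold (adjusted p = 0.0738). It measured -1.51, -0.75, -0.65 and -1.08 in LFD-HFD tumors and -0.18, -0.01, 0.58, -0.09 and 0.32 in LFD tumors, and these groups did not overlap. Mki67 lay between -1.66 and -1.55 in the LFD-HFD tumors, with an SD of 0.05, and between -1.42 and -0.14 in LFD tumors.

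Other genes of the same machinery were counted from lists, beside 18.2% of all genes called and 6.99% called higher. Of 50 further kinetochore and spindle genes 26 were called higher in early tumors and none called lower, with a median difference of 0.53. Zwint had the lower mean in early tumors, at -0.33, and was not called. The smallest p belonged to Hjurp, the chaperone of Cenpa, at 0.67 ± 0.10 (adjusted p = 0.000232), and to Depdc1a at 1.04 ± 0.16 (adjusted p = 0.000488). Of 18 condensin and cohesin genes 9 were higher and none lower (median 0.53), led by the cohesin subunit Stag1 at 0.45 ± 0.10 and the cohesin acetyltransferase Esco2 at 0.92 ± 0.20. DNA replication genes, which act in S phase before the members do, had 14 of 22 higher and none lower (median 0.55), with Tyms at 0.70 ± 0.16 and Orc1 at 0.69 ± 0.17. Their median was 0.33 within HFD and 0.54 within HFD-LFD, where the members had 0.93 and 0.47.

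Other lists had medians nearer to that of all genes, of which 18.2% were called and 6.99% called higher. Of 14 genes of the anaphase-promoting complex and its inhibitors 1 was higher and 1 lower (median -0.03): Fbxo5, the inhibitor Emi1, at 0.81 ± 0.18 (adjusted p = 0.00475), and the subunit Anapc13 at -0.36 ± 0.12 (adjusted p = 0.0385). Of 10 genes of the MuvB and Myb group 2 were higher, with a median of 0.28 against -0.06 over all genes. The called genes were the pocket protein Rbl1 at 0.73 ± 0.13 and Tfdp1, the partner of E2F, at 0.82 ± 0.27 (adjusted p = 0.042). Within HFD 4 of the 10 were called higher, against 6.02% of all genes. Of 18 genes that restrain G2/M 2 were higher and 4 lower (median 0.00). The phosphatase Cdc14b was lower by -1.31 ± 0.20 (adjusted p = 0.000325) and Ccng2, a cyclin linked to arrest, higher by 0.59 ± 0.17 (adjusted p = 0.0234).

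Some cell type markers differed with onset, and their part in the members' change was not tested. Over all genes 18.2% were called and 6.99% called higher, so 1 call in a list of 5 or 6 is near the share called. Before adjustment 33.8% of all genes had p under 0.05, the share to set beside the unadjusted counts below. Of 7 luminal markers 4 were called lower in early tumors and none called higher (median -1.81), led by Gata3 at -2.15 ± 0.32 and Esr1 at -1.32 ± 0.44. Epcam lay on the other side at 0.26 and was not called. The luminal mean ratio ran from -0.32 to 2.27 in early tumors and from -2.12 to 3.58 in late ones. Basal markers had 1 of 6 lower, Myh11, and a median of -0.09. Acta2 had -1.40 (adjusted p = 0.0533), while Krt14, Krt5 and Trp63 lay on the other side at 1.19, 0.46 and 0.45, none of them called. Squamous markers had 0 of 8 called by limma with a median of 1.31, and mean ratios of -2.35 to 0.44 in early and -4.18 to 3.00 in late tumors. Before adjustment 4 of the 8 had p under 0.05, and the leading genes were Dsg3 at 1.05 (adjusted p = 0.0532) and Sprr1a at 2.34 (adjusted p = 0.0694). Macrophage, T cell and fibroblast markers had 1 of 5 lower each, namely Cd14, Cd3d and Dcn, with Csf1r, Cd3e and Col1a2 next and medians of -0.40, -0.96 and -0.38. All 5 T cell markers had the lower mean in early tumors, 4 of them with an unadjusted p under 0.05, while the fibroblast markers Col1a1 (0.44) and Pdgfra (0.26) and the macrophage marker Adgre1 (0.17) lay on the other side. Their mean ratios were -0.01 to 0.44, -1.76 to -0.74 and -3.19 to -2.09 in early tumors and 0.00 to 1.33, -1.09 to 2.21 and -3.38 to 0.08 in late ones. None of 3 B cell, 4 endothelial, 4 adipocyte and 4 skeletal muscle markers was called by limma (1 endothelial marker and none of the rest had an unadjusted p under 0.05), with medians of -0.11, -0.15, -0.95 and -0.40. Their leading genes were Cd79b and Cd79a, Kdr and Cdh5, Plin1 and Fabp4, and Acta1 and Tnnt3. Pgr, Ms4a1 and Lep did not pass the filter on signal.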

How the data were processed

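RNA of 24 tumors and a common reference were hybridised to 2-colour Agilent 4x44K arrays. The deposited files hold scanner intensity per spot and channel and the scanner software's log10 ratio of red over green; per the file headers they come from Feature Extraction 11.0.1.1, and per the labels from version 8.5.1.1. Probe positions are those of the files (mm9), with no gene models of that build used here. The members, lists and alternatives were chosen with earlier results of these data known.

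The normexp method (offset 50, outlier spots left out of its fit) removed background, and loess normalized each array (limma 3.58.1, R 4.3.3). Bands of 10 rows whose ratio was dimmed by more than 0.5 (log2) were set missing and left missing. A probe was kept where, on 80% of its usable arrays, each channel gave more than 10 units above background (27318 probes), and gaps elsewhere were filled from its 10 nearest neighbours. RefSeq accessions named 27234 of the 39429 probes, current symbols 3576 and older symbols 565, while for 8054 the name printed is the one deposited. The probe of highest mean intensity stood for a gene. Groups were compared with limma's moderated tests, two-sided, with Benjamini-Hochberg adjustment over all 20971 genes, as the study's methods name limma, and the significance analysis they also name was not run. In each role group the 2 members of smallest p, and Mki67, Top2a, Ccnb1, Cdk1, Plk1 and Foxm1, were given in full. From each list the 2 genes of smallest p were named. The number of arrays limits the precision. Alternatives covered the dimmed rows, background, normalization, filter, imputation, probe choice, array weights, variance trend, slide, scan session, diet and each tumor left out. The 6 comparisons as reported were tested on simulated data, the alternatives were not.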

Additional observations from a re-analysis of the deposited data

Results flagged for a closer look

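Among 47 groups of 4 to 10 tumors examined for the members described in full and for their median, 2 held a tumor far from the rest, and chance alone marks about 1 group in 20. Foxm1 in the 6 HFD Late tumors had its lowest value in HFD Late 1, at -1.33, while the next was -0.47 and the highest -0.03. That tumor was also the lowest of all 24 for 23 members. Kif23 in the 4 LFD Late tumors with a value had its highest value in LFD Late 3, at 0.21, while the other 3 lay between -0.24 and -0.19.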

How the results depend on the processing

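The early tumors kept the higher mean for every member tested under all 43 refitted settings, with a median difference of 0.66 to 1.26. The settings and the members share tumors, so these results are not independent of each other. Median centring moved the median of all genes to 0.22 from -0.06 and the share of called genes that were higher in early tumors to 82.0% from 38.4%, the tumor channel alone moved that share to 58.3%, and all members lay above the median of all genes in both. Between early and late tumors the count of 29 members became 0 with the slide as a fixed block, against 0.372% of all genes. It became 10 within scan session 2, against 11.9% of all genes, and 8 of those were among the 29. Leaving out 1 tumor gave 17 (without HFD Early 1) to 39 (without HFD Late 6), against 13.9% and 21.2% of all genes. Within HFD the count of 20 became 12 with the slide as a random block, against 5.18% of all genes. With 1 tumor left out it ran from 9 (without HFD Early 1) to 29 (without HFD Late 6), against 6.84% and 18.2%. Within HFD-LFD the count of 0 became 11 at an unadjusted p under 0.05, 1 without the slides with dimmed rows, 2 with median centring, 6 with array weights, and 0 to 1 with 1 tumor left out. The difference between the onset changes gave 6 at an unadjusted p and 2 with array weights, against 8.21% and 2.15% of all genes. The comparison of late diets gave 7 at an unadjusted p, 12 with array weights, and 0 to 1 with 1 tumor left out. HFD against LFD gave 0 throughout. No paired analysis was possible because the replicate numbers only follow the order of deposit. The causes of these shifts were not tested. Missing values on the 7 dimmed arrays limit the members with 20 to 22 values.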
